A study of Mus musculus with 4 samples.

Results

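Runx2 peaks were examined at 47 genes that carry the Wnt signal, from the secreted ligands to the factors that receive the signal in the nucleus. The set held 19 Wnt ligands, 10 frizzled receptors, 6 other receptors and co-receptors (Lrp4, Lrp5, Lrp6, Ror1, Ror2 and Ryk), 4 R-spondins, 4 intracellular components (Ctnnb1, Axin1, Axin2 and Apc) and 4 nuclear effectors (Lef1, Tcf7, Tcf7l1 and Tcf7l2), of 22372 protein-coding genes in GENCODE M1. The genes were chosen by name and role, and a peak was counted for a gene when it overlapped the gene body, extended by 10 kb on each side, by at least 1 bp. The extended genes held 105 of the 25457 peaks of day 0, 287 of the 60596 peaks of day 9 and 205 of the 40330 peaks of day 28.

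The peaks came from ChIP-Seq of Runx2, the runt-domain transcription factor required for osteoblast formation, in MC3T3-E1 subclone 4, a clonal preosteoblast line from mouse calvaria labelled as strain C57BL/6. Differentiation was induced with ascorbic acid and beta-glycerophosphate, and chromatin was taken from proliferating preosteoblasts at day 0, matrix-depositing osteoblasts at day 9 and mineralizing osteoblasts at day 28. All 3 groups were immunoprecipitated with the same antibody, Runx2 M70, and compared with input DNA of day 9 cells. The authors pooled 2 libraries per time point before they called peaks, so each time point had 1 list, a difference between time points had no replicate error, and no test was made between time points. The lists held no read counts, so the number of reads behind a peak is unknown. Proliferating cells were sequenced to more raw reads than either later stage and gave the shortest list, and the part of read depth in the list sizes was not tested. Intervals given for shares of peaks or regions are exact binomial (Clopper-Pearson) 95% intervals that cover counting error alone. Intervals given for medians are 95% intervals from the ranks of the member genes or peaks. They describe spread among those genes or peaks, which are not replicates of a time point.

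Wnt ligands are secreted proteins that bind frizzled receptors together with the co-receptors Lrp5 and Lrp6. Binding frees beta-catenin, encoded by Ctnnb1, from a complex in which Axin and Apc hold it for degradation, and beta-catenin then joins Tcf and Lef factors on DNA. Ror1, Ror2 and Ryk receive Wnt signals that largely run apart from beta-catenin, and R-spondins amplify Wnt signals at the membrane. In bone the pathway promotes the osteoblast fate, and Lrp5 is known for human disorders of low and high bone mass.

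The sequences below show Runx motifs under peaks of 3 ligands, 3 receptors outside the frizzled family, 1 intracellular component and 3 nuclear effectors. Each holds the centre base and 50 bp on each side of the highest-scoring day 9 peak that held TGTGGT and no exon, read 5′ to 3′ on the forward strand of NCBIM37 (mm9). Capitals mark the Runx core TGTGGT or, where the core lies on the reverse strand, ACCACA.
Wnt3a: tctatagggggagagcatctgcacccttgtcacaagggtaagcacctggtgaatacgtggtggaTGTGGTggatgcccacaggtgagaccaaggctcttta
Wnt5a: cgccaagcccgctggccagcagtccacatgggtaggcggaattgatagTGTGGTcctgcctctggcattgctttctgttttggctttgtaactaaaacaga
Wnt7b: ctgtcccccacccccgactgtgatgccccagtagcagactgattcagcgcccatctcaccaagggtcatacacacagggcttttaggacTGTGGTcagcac
Lrp5: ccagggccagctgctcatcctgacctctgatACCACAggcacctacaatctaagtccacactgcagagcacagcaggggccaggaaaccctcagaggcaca
Ror2: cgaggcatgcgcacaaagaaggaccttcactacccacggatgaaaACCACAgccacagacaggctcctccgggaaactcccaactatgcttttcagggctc
Ryk: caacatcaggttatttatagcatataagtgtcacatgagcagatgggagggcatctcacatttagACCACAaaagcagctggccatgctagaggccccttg
Ctnnb1: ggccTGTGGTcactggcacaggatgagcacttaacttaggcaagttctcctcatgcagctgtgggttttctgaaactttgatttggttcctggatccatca
Lef1: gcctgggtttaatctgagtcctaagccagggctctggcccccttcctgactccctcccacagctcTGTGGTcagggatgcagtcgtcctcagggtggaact
Tcf7: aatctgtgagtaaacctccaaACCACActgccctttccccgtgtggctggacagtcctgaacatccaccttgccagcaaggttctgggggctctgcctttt
Tcf7l2: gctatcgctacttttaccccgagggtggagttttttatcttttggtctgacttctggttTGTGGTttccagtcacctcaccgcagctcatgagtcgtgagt
Each window held 1 Runx core. The Wnt3a window (chr11:59107373-59107473) lay 3.17 kb upstream of the gene, the Wnt5a window (chr14:29346283-29346383) 5.70 kb downstream and the Ryk window (chr9:102817728-102817828) 7.14 kb downstream. The other 7 windows lay in introns, numbered in the transcript with the longest coding sequence. These were intron 1 of Wnt7b (chr15:85404992-85405092), Ror2 (chr13:53327061-53327161) and Ctnnb1 (chr9:120857107-120857207), intron 3 of Tcf7 (chr11:52094236-52094336) and Tcf7l2 (chr19:55843524-55843624), intron 5 of Lrp5 (chr19:3645947-3646047) and intron 11 of Lef1 (chr3:130922219-130922319). In Wnt5a the core was 1 bp from the peak centre and in Ror2 it was 2 bp away, while in Ctnnb1 it was 43 bp away. The peaks at Wnt3a, Wnt5a, Ctnnb1 and Tcf7l2 belonged to regions with a peak at all 3 time points, and those at Lrp5 and Tcf7 were seen at day 9 alone.

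At least 1 peak was found at 35 of the 47 genes on day 0 (74.5%, against 59.0% of all protein-coding genes), at 43 on day 9 (91.5% against 72.2%) and at 39 on day 28 (83.0% against 66.3%). The median number of peaks per gene was 1 (95% interval 1 to 2) on day 0, 4 (2 to 6) on day 9 and 3 (2 to 5) on day 28, where all genes had medians of 1, 2 and 1. These intervals treat the 47 named genes as independent draws, although some neighbours share peaks, and give no error for a time point. The members are long, with a median gene body of 30.8 kb against 15.4 kb for all genes, and longer windows collect more peaks. Each member was therefore set beside the other protein-coding genes with a body between 0.8 times its length and its length divided by 0.8. Of those genes of like length, 67.0%, 80.3% and 74.6% on average had a peak at days 0, 9 and 28. More peaks than the median of genes of like length were found at 21 members on day 0 (33.6% of all genes had more than their own such median), at 31 on day 9 (40.4%) and at 32 on day 28 (37.6%). The mean number of peaks per member was 2.30, 6.30 and 4.45, against 1.47, 3.35 and 2.28 for the means of genes of like length.

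A member's place is its percentile among the genes of like length, ties counted at their middle. The median place was 58.5 on day 0, 68.2 on day 9 and 74.0 on day 28. Places of 95 or more were held by 6, 9 and 7 members, where 4.68%, 5.05% and 4.68% of all genes had such a place. At day 9 these 9 members were the ligands Wnt6, Wnt7b, Wnt9a, Wnt10a and Wnt10b, the receptor Ryk, and Tcf7, Tcf7l1 and Tcf7l2. No member had a place of 5 or less at any time point, and neither had any other gene, because many genes of every length had no peak and share a middle place.

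**Figure D1:**
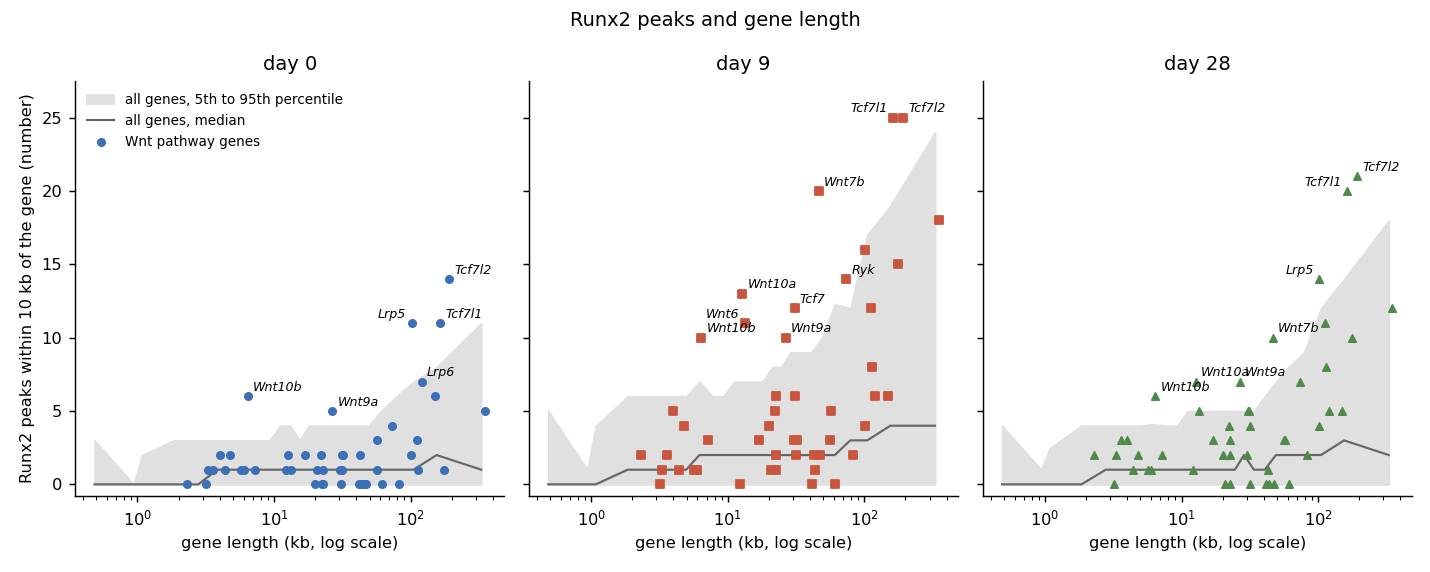
Runx2 peaks within 10 kb of each gene (y axis, number) against gene length (x axis, kb, log scale) at day 0, day 9 and day 28; points are the 47 Wnt pathway genes, the line is the median and the band the 5th to 95th percentile of all protein-coding genes in bins of length. Named genes had a place of 95 or more among genes of like length; Tcf7l1 and Tcf7l2 reached 25 peaks at day 9.

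The strength of a peak is given below as the percentile of its score within its own list. Peaks with the tied score of 3100 share percentile 99.5 at day 0, 97.4 at day 9 and 97.8 at day 28, so these 3 values mark the same score. The lists differ in length, and a different percentile at another time point is a different rank and not a measured change in binding.

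Among the ligands, binding was concentrated at a few genes. Wnt7b, a ligand expressed in developing bone, had 20 peaks at day 9 and 10 at day 28 but 0 at day 0, and its place went from 13.8 to 99.6 and 98.7. Its 19 regions were either bound at day 9 alone (9 regions) or at days 9 and 28 (10 regions), so that every day 28 peak overlapped a day 9 peak. Wnt5b, a ligand of signals apart from beta-catenin, had 3, 12 and 11 peaks at days 0, 9 and 28. The highest-scoring of its regions, chr6:119428423-119431392, was also the start of Fbxl14, which lies within intron 1 of Wnt5b.

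Wnt10a and Wnt6 are neighbours, 6.20 kb apart, and shared 7 of their day 9 peaks, so their values are not independent. Wnt10a had 2, 13 and 7 peaks, and Wnt6 had 1, 11 and 5. The strongest peak near Wnt10a was centred 3312 bp beyond its end, at chr1:74852755-74855374, and stood at percentiles 98.0, 97.4 and 97.8, the last 2 of them the tied score of 3100. Wnt10b, a ligand that favours bone formation over fat, had 6, 10 and 6 peaks on a gene of 6.4 kb and places of 99.7, 99.4 and 98.6. Its start lay in a region of 4156 bp with peaks at all 3 time points at percentiles 98.9, 97.4 and 97.8, which is also counted for Wnt1, 11.7 kb away. Wnt9a had 5, 10 and 7 peaks and places of 98.3, 97.5 and 97.9.

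The other ligands had fewer peaks. Wnt1 had 2, 5 and 3 peaks, Wnt4 had 2, 5 and 4, and Wnt5a, the best known ligand of Ror2, had 1, 6 and 3. Wnt11 had 0, 4 and 2 peaks and Wnt2b had 2, 3 and 3. Wnt3a, a strong activator of beta-catenin, had 2, 2 and 1 peaks, and 1 of them stood at percentile 99.5 of the day 0 list, 88.2 of day 9 and 74.0 of day 28. This is the upstream region whose sequence is shown above. Wnt3, Wnt7a and Wnt9b had peaks at day 9 alone, 1, 2 and 2 in number, and the Wnt3 peak lay within Nsf, the next gene. Wnt8a had 1 peak at each time point, in 3 separate places, and Wnt8b had 1, 1 and 0. Wnt16 had 1, 0 and 1, in the only region of any member with peaks at days 0 and 28 but not at day 9. Wnt2 had no peak at any time point.

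**Figure D2:**
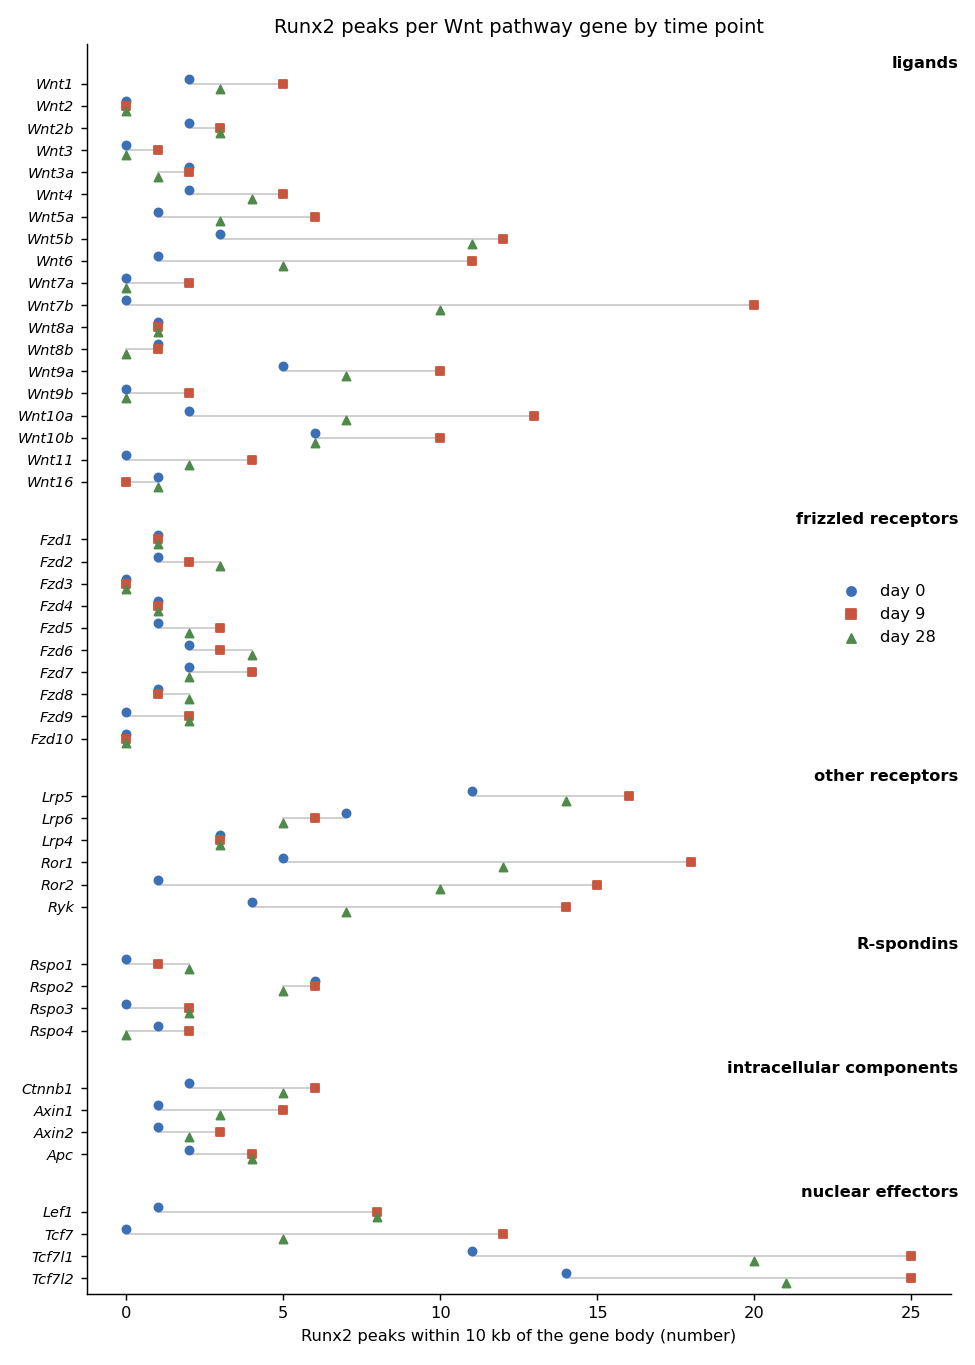
Number of Runx2 peaks within 10 kb of the gene body (x axis) for each of the 47 genes (y axis, grouped by role); circles are day 0, squares day 9 and triangles day 28, with a grey line from the lowest to the highest, and each symbol is 1 pooled list. Wnt7b and Tcf7 had no peak at day 0 and 20 and 12 at day 9, while all frizzled genes stayed at 4 peaks or fewer.

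The R-spondins had few peaks apart from Rspo2. Rspo2 had 6, 6 and 5 peaks over a gene of 150 kb, and 3 of its 9 regions were bound at day 0 alone. Rspo3 had 0, 2 and 2 peaks, Rspo1 had 0, 1 and 2, and Rspo4 had 1, 2 and 0. The median place of the 4 genes was 30.8, 41.7 and 56.6, with medians of 0.5, 2 and 2 peaks.

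The frizzled genes, which encode the receptors that bind Wnt ligands, had a median of 1 peak at day 0, 1.5 at day 9 and 2 at day 28. Their means of 0.9, 1.70 and 1.70 peaks stood beside means of 1.04, 2.15 and 1.47 for genes of like length, below at days 0 and 9 and above at day 28. Their median places were 59.7, 53.3 and 70.4. All 8 frizzled genes with a peak at day 9 had one over the start. Of their genes of like length, 69.8% on average had a peak at day 9 and 47.2% had one over a start. Fzd1 and Fzd4 each had 1 region, over the start, with a peak at all 3 time points. Fzd2 had 1, 2 and 3 peaks, Fzd5 had 1, 3 and 2, Fzd7 had 2, 4 and 2, and Fzd8 had 1, 1 and 2. In these genes too the region over the start was bound at all 3 time points, and at Fzd8 its peaks reached percentiles 88.3, 97.4 and 97.8. Fzd6 had 2, 3 and 4 peaks with the start bound at days 9 and 28, and Fzd9 had 0, 2 and 2. No peak was found at Fzd3 or Fzd10 at any time point. Together with Wnt2 these were the 3 members without a peak, where 25.6% of all genes had none.

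The other receptors held many peaks. Their medians were 4.50, 14.5 and 8.5, and all 6 had a peak at every time point. Of their genes of like length, 72.4%, 86.5% and 79.0% on average had a peak at days 0, 9 and 28. The median place of the 6 receptors was 87.6, 87.7 and 84.4. Lrp5 had 11, 16 and 14 peaks in 18 regions, 9 of which were bound at all 3 time points. Its places were 99.3, 94.8 and 98.3. Its strongest day 0 region lay in intron 1, 5.1 kb from the start, at percentiles 98.0, 93.1 and 97.8. One Lrp5 region bound at all 3 time points, chr19:3575019-3576932, lay over the start of Ppp6r3, the next gene.

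Lrp6, the partner of Lrp5, was the receptor with more peaks at day 0 than at day 9, with 7, 6 and 5. Its place was 95.9 at day 0 and 69.3 at day 9. Of its 10 regions, 3 were bound at day 0 alone and 3 at all 3 time points. The peak over its start had percentiles 55.5, 94.0 and 95.8, whereas 2 regions in intron 12 and downstream of the gene stood at 97.1 on day 0 and at 18.3 and 49.8 on day 9. Lrp4, a co-receptor that binds sclerostin, had 3 peaks at each time point. Its intron 8 region of 4095 bp, chr2:91313926-91318020, had the tied score of 3100 in each list.

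Ror2, a receptor of Wnt5a, had 1, 15 and 10 peaks, and its start was bound at days 9 and 28. Ror1 had 5, 18 and 12 peaks along 349.0 kb with a place of 86.7 at day 9. Ryk had 4, 14 and 7 peaks and a place of 95.8 at day 9. Of the 15 regions of Ryk, 7 were bound at day 9 alone, 1 of them upstream and 3 downstream of the gene. TGTGGT lay within 50 bp of the centre of 7 of the 14 day 9 peaks of Ryk and of 7 of the 18 at Ror1. At the other 4 genes of this role it lay in 4 of 15 (Ror2), 3 of 16 (Lrp5), 3 of 6 (Lrp6) and 0 of 3 (Lrp4). Of all day 9 peaks 25.4% held it.

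**Figure D3:**
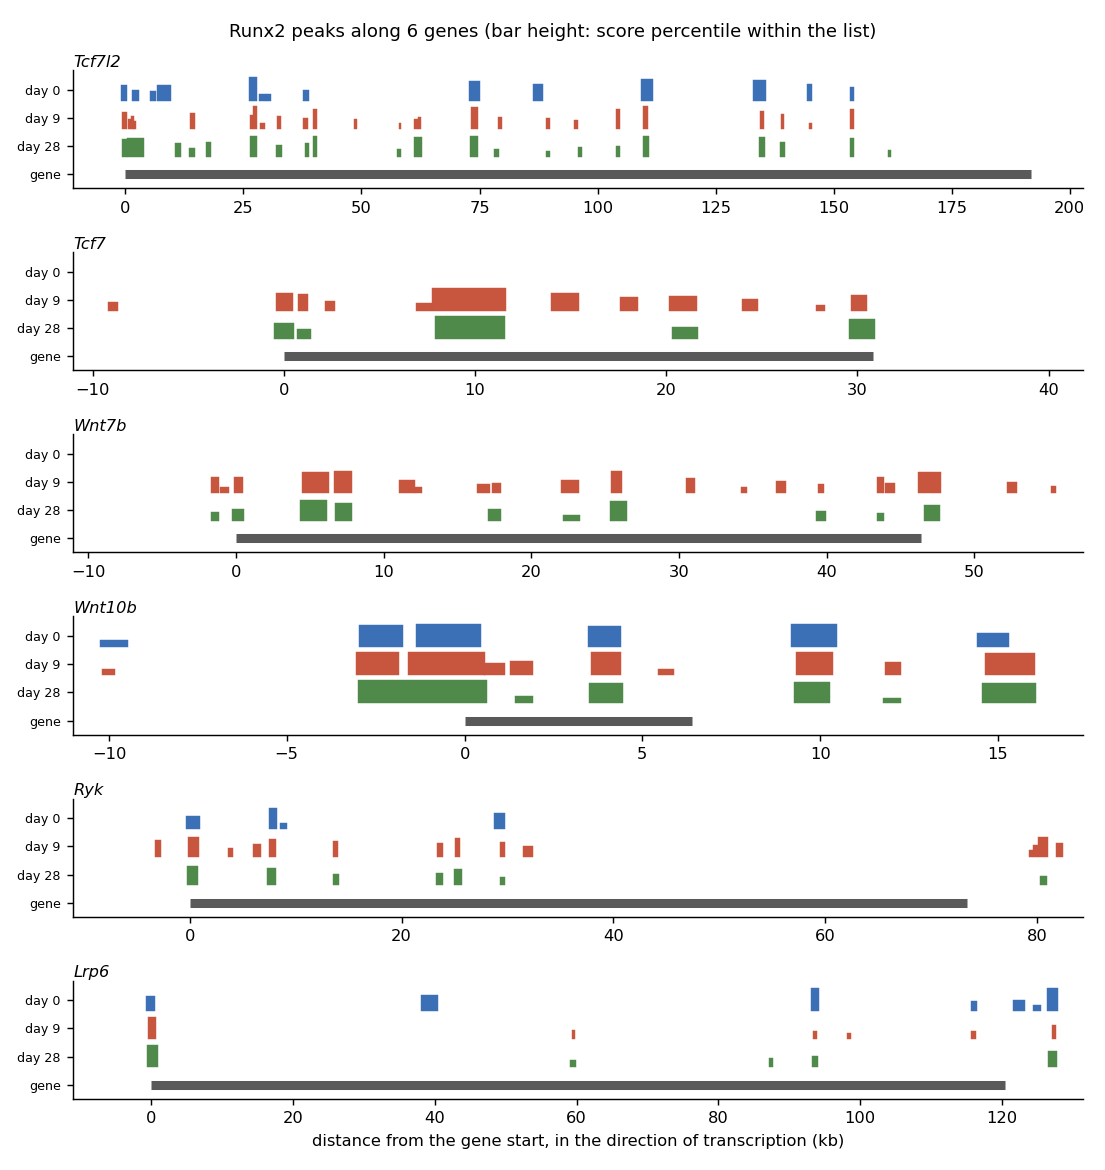
Runx2 peaks along Tcf7l2, Tcf7, Wnt7b, Wnt10b, Ryk and Lrp6; the x axis is the distance from the gene start in kb in the direction of transcription, the grey bar is the gene, and each coloured bar is a peak at day 0, day 9 or day 28, its width to scale and its height the percentile of its score within its list. Tcf7 and Wnt7b are empty at day 0, and Lrp6 holds 7 peaks at day 0 against 6 at day 9.

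The intracellular components each had a peak over a start at all 3 time points. Ctnnb1 had 2, 6 and 5 peaks in 8 regions, and the region over its start stood at percentiles 78.1, 91.5 and 95.5. The second Ctnnb1 region bound at all 3 time points, in intron 1, is the one shown above, and its peaks ranked at percentiles 7.54, 87.3 and 84.4. Of the remaining Ctnnb1 regions, 4 lay downstream, within Ulk4. Axin1 had 1, 5 and 3 peaks and Axin2, itself a target of beta-catenin, had 1, 3 and 2. The start of Axin2 stood at percentile 18.9 on day 0, 80.4 on day 9 and 91.1 on day 28. Apc had 2, 4 and 4 peaks, and 1 of its regions lay over the start of the neighbouring Srp19.

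The nuclear effectors, the Tcf and Lef factors that carry beta-catenin on DNA, had the highest numbers of any role, with medians of 6, 18.5 and 14 peaks. Their median place moved from 68.1 (day 0) to 97.3 (day 9) and 95.8 (day 28). Tcf7l2 had 14, 25 and 21 peaks in 29 regions over 191.8 kb, of which 9 were bound at days 9 and 28 and 8 at all 3 time points. The intron 3 region shown above held the highest-scoring Tcf7l2 peaks of days 0 and 28, at percentiles 99.1 and 87.7, and stood at 97.4 at day 9. Tcf7l1 had 11, 25 and 20 peaks in 28 regions, 10 of them bound at all 3 time points. The 2 genes had places of at least 97.1 at each time point.

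Tcf7 and Lef1 had few or no peaks at day 0. Tcf7 had 0, 12 and 5 peaks, and its place went from 14.1 to 98.6 and 93.0. As at Wnt7b, all 5 regions with a day 28 peak also had a day 9 peak, and 7 regions were bound at day 9 alone. A region of 3801 bp in intron 3, chr11:52085136-52088936, held the highest Tcf7 peaks, at percentile 97.4 on day 9 and 97.8 on day 28. Lef1 had 1, 8 and 8 peaks, of which the day 0 peak stood at percentile 22.5. A region in its intron 3, chr3:130881336-130882442, was at percentile 97.4 on day 9 and 79.2 on day 28.

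More peaks were found at day 9 than at day 0 at 34 members, as many at 11 and fewer at 2, Lrp6 and Wnt16. The matching shares of all genes were not computed, for these lists or for the equal lists below, so these counts have no background. The whole lists differ in the same way, and day 9 held 2.73 times as many member peaks as day 0 where the full lists differed by 2.38 times. Day 28 held 0.714 times as many member peaks as day 9, against 0.666 times for the full lists. With each list limited to its 25457 highest-scoring peaks, 18 members had more peaks at day 9 than at day 0, 19 had as many and 10 had fewer. In these equal lists Wnt7b had 0, 6 and 5 peaks, Tcf7 had 0, 4 and 3, Lef1 had 1, 6 and 3, and Ror2 had 1, 5 and 5. Tcf7l2 had 14, 8 and 14, Tcf7l1 had 11, 9 and 13, and Lrp6 had 7, 1 and 2. The day 9 excess at Tcf7l1 and Tcf7l2 thus turned in equal lists, and that at Wnt7b, Tcf7, Lef1 and Ror2 did not.

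A peak over an annotated start, within the 1000 bp before or the 150 bp after the first base of a protein-coding transcript, was found at 21 members on day 0 (42.7% of all genes had one, and 49.7% on average of genes of like length). There were 35 such members on day 9 (51.6% of all genes and 59.5% of genes of like length) and 34 on day 28 (50.1% and 58.3%). A start peak at all 3 time points was found at 21 of the 47 members, against 41.4% of all genes. Ligands and receptors differed in how many of the genes had a start peak at day 0. Of the 19 ligands, Wnt9a and Wnt10b alone had a start peak at day 0, while 11 had one at day 9 and 10 at day 28. Genes of like length to the ligands had 51.4%, 61.0% and 59.8% on average. Of the 10 frizzled genes 6 had a start peak at day 0, as had 5 of the other 6 receptors and all 4 intracellular components. For these roles the genes of like length had 38.7%, 52.4% and 56.8% on average at day 0. A peak over any annotated start was enough, and genes of like length were not matched for their number of starts. Ctnnb1, Axin1 and Axin2 have 5 starts each and Apc has 3, while ligands have 1 to 3 and frizzled genes 1 or 2. The 13 members with start peaks at days 9 and 28 but not at day 0 were 8 ligands (Wnt1, Wnt4, Wnt5a, Wnt5b, Wnt6, Wnt7b, Wnt10a and Wnt11), Fzd6, Fzd9, Ror2, Rspo3 and Tcf7. Wnt3a had a start peak at day 9 alone. The other 12 members had none at any time point, and these were Wnt2, Wnt2b, Wnt3, Wnt7a, Wnt8a, Wnt8b, Wnt9b, Wnt16, Fzd3, Fzd10, Rspo1 and Rspo4.

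Peaks that shared at least 1 bp across the 3 lists were merged, which gave 312 regions at the members of 67703 in all. Of the member regions 27.6% (22.7 to 32.9%) were bound at day 9 alone, against 34.5% of all regions. Peaks at days 9 and 28 but not at day 0 were held by 31.4% (26.3 to 36.9%) against 21.1%, and peaks at all 3 time points by 24.7% (20 to 29.9%) against 27.4%. Day 0 alone accounted for 5.13% of member regions and day 28 alone for 8.65%, against 5.60% and 7.59% of all regions. In the equal lists 14.5% (9.71 to 20.6%) of 179 member regions were bound at days 9 and 28, against 13.7% of all regions, so the difference in this class was not seen there. For day 9 alone the direction turned in the equal lists, with 15.1% (10.2 to 21.2%) of member regions against 11.9% of all regions, a share within that interval. All 3 time points then made up 34.1% (27.2 to 41.5%) against 37.7%. Day 28 alone made up 14.0% (9.25 to 19.9%) against 8.40%, and day 0 alone 16.2% (11.1 to 22.4%) against 20.1%. By role, 7 of the 18 frizzled regions were bound at all 3 time points and 6 at days 9 and 28. Of the 99 ligand regions 35 were bound at day 9 alone, 34 at days 9 and 28 and 19 at all 3. Among all regions the last 3 classes held 34.5%, 21.1% and 27.4%.

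**Figure D4:**
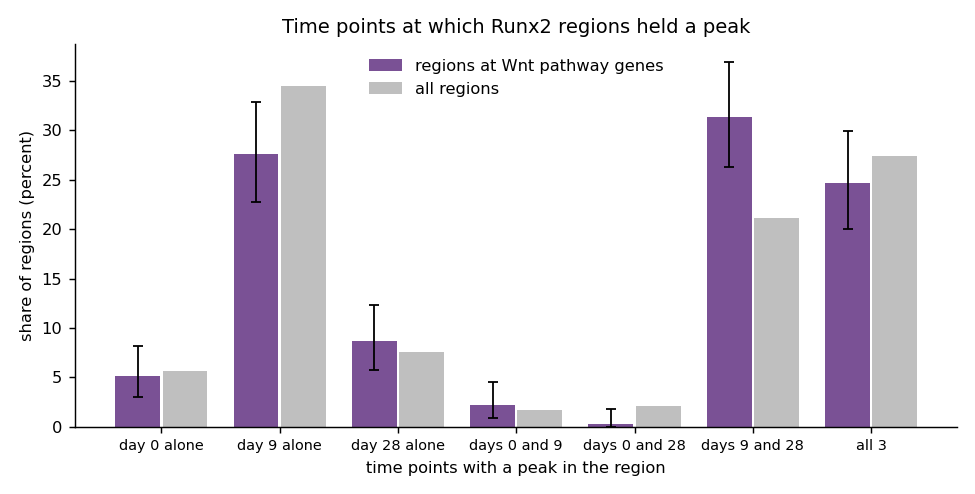
Share of merged regions (y axis, percent) by the time points at which they held a peak (x axis), for the 312 regions at Wnt pathway genes (purple, with exact binomial 95% intervals) and for all 67703 regions (grey). Regions with peaks at days 9 and 28 made up 31.4% at the Wnt pathway genes and 21.1% of all regions.

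Most member peaks lay within genes, which the counting rule favours, because only peaks within 10 kb of a gene body were counted. The same shares were not computed for genes of like length. By the position of the peak centre, 53.3% were in introns at day 0, 58.9% at day 9 and 60.5% at day 28, and 6.67%, 11.5% and 7.80% were in coding exons. Peaks over a member's start numbered 23, 48 and 43. A further 6, 7 and 7 peaks lay over the start of another protein-coding gene, such as Arf3 beside Wnt10b, and can belong to either gene. Within their lists the member peaks had median percentiles of 58.5 (48.7 to 68.7) at day 0, 50.3 (44.4 to 56.3) at day 9 and 47.3 (38.5 to 56.1) at day 28. They were close to all peaks in width, with medians of 1022, 571 and 818 bp against 917, 554 and 763 bp.

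The Runx core TGTGGT, on either strand, lay within 50 bp of the centre of 15.2% (8.97 to 23.6%) of member peaks at day 0, 24.4% (19.5 to 29.8%) at day 9 and 18% (13.0 to 24.0%) at day 28. All peaks had 16%, 25.4% and 20.9%, and the flanks of the member peaks, windows of the same length 450 to 550 bp from the centre, had 7.14%, 6.62% and 6.83%. In wide peaks these windows begin inside the peak, and the median member peak was 1022 bp wide at day 0. Over member starts the core was found in 0 of 23 peaks at day 0, 5 of 48 at day 9 and 3 of 43 at day 28, and elsewhere in 19.5%, 27.2% and 21.0% of peaks. Over the starts of all genes 4.82%, 6.21% and 5.21% of peaks held it. Of all peaks elsewhere 22.2%, 30.2% and 26.8% held it, each above the member share and within its 95% interval. Those intervals were 11.6 to 29.7%, 21.7 to 33.3% and 15.0 to 28.1%. Wnt5b had the core in 6 of 12 day 9 peaks and Wnt7b in 4 of 20. Among members with a peak, none was found at any time point at Wnt3, Wnt4, Wnt9b, Wnt16, Lrp4, Rspo1, Fzd1, Fzd4, Fzd5, Fzd6, Fzd8 or Fzd9. These genes had at most 5 peaks in a list, so few or no matches could be counted there. A match is a description of the letters in the window and not a measured contact.

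**Figure D5:**
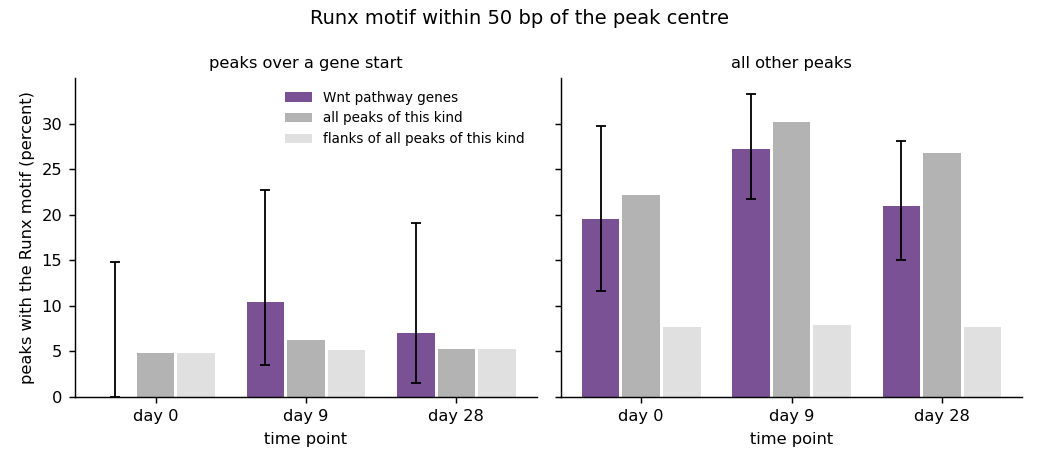
Share of peaks (y axis, percent) with TGTGGT within 50 bp of the centre at day 0, day 9 and day 28 (x axis), for peaks over a gene start (left) and all other peaks (right); purple bars are peaks at Wnt pathway genes with exact binomial 95% intervals, dark grey all peaks of the same kind and light grey the flanks of those peaks. Away from starts the share at Wnt pathway genes was 27.2% at day 9 and that of all peaks 30.2%.

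The letters CTTTGAA and CTTTGAT, which Tcf and Lef factors prefer, were searched in the same windows, a search chosen after seeing the data. They lay in 3 of 105 member peaks at day 0, 7 of 287 at day 9 and 7 of 205 at day 28, or 2.86% (0.593 to 8.12%), 2.44% (0.986 to 4.96%) and 3.41% (1.38 to 6.91%), where all peaks had 2.39%, 1.66% and 2.26%. The flanks of the member peaks had 1.90%, 2.79% and 3.90%. The window in intron 1 of Ctnnb1 shown above holds both a Runx core and CTTTGAT.

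A list of 32 other genes of the pathway gave the setting. At least 1 peak was found at 27, 31 and 31 of them at days 0, 9 and 28, with medians of 2, 5 and 4 peaks. Of all genes, 59.0%, 72.2% and 66.3% had a peak. More peaks than the median of genes of like length were found at 20, 23 and 22 of the 32. Among all genes 33.6%, 40.4% and 37.6% had more than their own such median. The 32 genes had median places of 74.7, 75.7 and 81.5, above the 58.5, 68.2 and 74.0 of the 47 members. A start peak was found at 19, 28 and 27, where 42.7%, 51.6% and 50.1% of all genes had one. Lgr6, a receptor of R-spondins, had the most day 9 peaks with 18, after 4 at day 0 and before 7 at day 28. Its relative Lgr5 had none at any time point. Bcl9l, a co-activator of beta-catenin, had 5, 13 and 8 peaks and a place of 99.8 at day 9, and Znrf3, a ligase that removes frizzled receptors from the membrane, had 10, 15 and 12.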

How the data were processed

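Runx2 ChIP-Seq peak lists of day 0, day 9 and day 28 were used, 1 per time point. Per the submitters' processing notes and the study's methods, single-end reads were handled with CASAVA (version 1.6), mapped to mm9 with Bowtie (version 0.12.8), pooled over 2 libraries per time point, and used to call peaks with MACS (version 1.4.1) against pooled input at default settings, with a p-value of 1e-10 as the limit. Each deposited peak carries a score from MACS, which the authors left as the program gives it (minus 10 times the log10 of p). Many peaks share a score of 3100 and scores depend on depth, so the score was used, apart from stricter limits, only as a percentile within its list. The input sample and read signal were not analysed here.

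Gene bodies, transcripts and starts came from GENCODE M1 (Ensembl 65), annotated on the same assembly, NCBIM37, and 21 of 21 chromosome names matched. A gene was given a place only with at least 20 other genes of like length, which left out 26 genes. Adjacent members count a shared peak once each, and totals count it once.

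The members, lists and rules were chosen with earlier results of these data known. All 47 genes are in the counts. Named in full are the members with the most regions in each role, those without a peak, those with a start peak at all 3 time points and those with a place of 95 or more at day 9. The remaining members, named with their counts, and Bcl9l were chosen after their values were seen. Alternatives covered the window, the score, list size, like length, starts, overlap and motif. The procedures were tested on simulated data. Scripts ran in Python 3.11.15 with SciPy 1.17.1, NumPy 2.4.6 and, for plots, Matplotlib 3.10.9.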

Additional observations from a re-analysis of the deposited data

How the results depend on the processing

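Of 119 values recomputed under other settings, 93 stayed within 1.5 times the reported count or within the 95% interval of the reported value, and 26 did not. Of these alternatives, 2 were added after seeing the data, both with lists of equal size, under which 18 members had more peaks at day 9 than at day 0 and 14.5% of member regions were bound at days 9 and 28 alone. The extension of the gene (0, 5 or 20 kb), peak centres in the gene window and the range of like length moved no count of members with a peak or above genes of like length by over 1.5 times and no median out of its interval, although with the gene body alone 27 members had a day 0 peak and the day 9 median was 2. A stricter p-value lowered counts most at day 0. At 1e-50, 21 members had a peak at day 0, the median fell to 0, and 8 members had a start peak, and the day 28 median was 1. At 1e-100, 11 members had a day 0 peak and 11 exceeded genes of like length, and the medians were 0, 1 and 1. With the peak centre required in the promoter, 19 members had a start peak at day 28. The share of peaks with TGTGGT was 5.71%, 13.6% and 11.7% within 25 bp, 26.7%, 36.6% and 31.2% within 100 bp, and 17.0% at day 9 at 1e-50. The members had 196 merged regions at 1e-20, 105 at 1e-50 and 179 in equal lists. Regions bound at all 3 time points made up 17.3% with centres within 250 bp and 34.1% in equal lists, and regions of day 9 alone made up 20% at 1e-50 and 15.1% in equal lists, where all regions had 11.9%. The cause of these changes was not tested, beyond that stricter and equal lists hold fewer peaks. No paired analysis was possible because each time point has 1 pooled list, and for the same reason no replicate could be left out. Without read counts, a gene without a peak had none that passed the limit at this depth.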
